A study of Mus musculus with 12 samples.

Results

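The small (40S) subunit of the cytoplasmic ribosome carries the messenger RNA and reads its codons, and its protein genes are followed here in mouse oocytes and early embryos with and without Pabpn1l. A row of the deposited table was a member if its symbol began with Rps and a digit, or was Rpsa or Fau. Kinase genes whose symbols begin with Rps6k, the binding-protein gene Rps19bp1 and symbols containing -ps were left out. The rule found 34 of the 11298 genes, and 8 other rows beginning with Rps fell outside it. All 34 members matched a RefSeq gene, and 32 did so under the symbol of the table. Rps3a is listed in RefSeq as Rps3a1, and Rps4y2 as Rps4l, a transcribed pseudogene. Thus 33 of the 34 matched genes are annotated as protein coding.

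RNA was measured by Smart-seq2 in Pabpn1l KO and Pabpn1l WT mice on a C57BL/6 background, at the germinal vesicle (GV) oocyte, 1-cell and 2-cell embryo stages. The 6 groups were KO GV oocytes, WT GV oocytes, KO 1-cell embryos, WT 1-cell embryos, KO 2-cell embryos and WT 2-cell embryos, with 2 libraries in each and 10 oocytes or embryos in each library. Oocytes came directly from the animal and embryos were kept in KSOM medium. The labels do not say how the allele was made, whether KO names the mother, the embryo or both, or whether both libraries of each group stem from different animals. The p-values therefore measure no more than the spread among these samples, which could be technical. Since a library is bulk material, fewer contributing cells and less RNA per cell cannot be told apart. Complementary DNA was primed with oligo-dT, so the values describe polyadenylated transcripts. A shortened tail and a lost message therefore cannot be told apart, nor can a lengthened tail and a new message. Where messages are said below to fall, rise or be kept, these values are meant.

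Ribosomal protein messenger RNAs are among the most abundant messages of growing cells. Many vertebrate ones start with a C followed by an unbroken run of pyrimidines, the terminal oligopyrimidine (TOP) motif, through which mTOR signalling and LARP1 set their translation and stability. A growing mouse oocyte stores messages and ribosomes, and most stored messages are cleared between oocyte maturation and the 2-cell stage, when the embryo's own genome is switched on. PABPN1L is a poly(A)-binding protein of oocytes, known in mouse to bring the deadenylase adaptor BTG4 to the tails of maternal messages.

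Values are FPKM, fragments scaled by transcript length and library depth, as deposited, and no value lay under a floor of 1 FPKM. A value of 1 therefore means at or under 1. Each embryo column was a set of 6-digit FPKM values multiplied by 1 library factor, which was 0.432 and 0.552 in KO embryos against 0.269 and 0.212 in WT embryos at the 1-cell stage. For 2-cell embryos it was 0.130 and 0.121 in KO embryos against 0.116 and 0.123 in WT embryos. Its basis is not given in the sources used here. The deposited scale leads below, and the FPKM before that factor stands beside it wherever a direction or a count turns on it. In comparisons before the factor, low values were raised to the highest floor of the stages compared, at most 8.61 FPKM. Between 900 and 6561 genes of a library were at the floor, and read depth cannot be had from these values. Genes at the floor in every library compared show no change and cannot be called. They still count in the medians and shares over all genes below, which therefore do not stand for detected genes alone. Pabpn1l itself stood at 7.23 and 4.98 FPKM in KO GV oocytes, against 220.1 and 203.9 FPKM in WT GV oocytes, with a log2 fold change of -4.92 ± 0.27 (SE, limma adjusted p = 0.000288). At the 2-cell stage it was at 1.00 and 1.90 FPKM in KO and 1.18 and 1 FPKM in WT embryos. All 9 oocyte markers on the list were above the floor in the 4 oocyte libraries. The 4 cumulus and granulosa markers in the table summed to 31.2 to 36.8 FPKM in oocyte libraries, of which Cyp19a1 made 23.8 to 31.3 FPKM, and all were at the floor in 2-cell libraries. The 3 sperm markers summed to 59.1 to 73.1 FPKM in oocyte and 3 to 3.74 FPKM in 2-cell libraries, and the 2 blood cell markers to 2 to 3.85 FPKM over all libraries. Among the libraries, KO 2-cell replicate 2 stood apart within its group, with a median member at 6.70 FPKM against 13.5 FPKM in replicate 1.

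The start of the transcript is shown first, because the TOP motif is the sequence feature by which these genes are usually recognised. RefSeq promoter windows (build GRCm38.p6) matched 25 of the 34 members. Each window below runs from 20 bases before the annotated start to the first 20 bases of the transcript, on the gene's own strand. Capitals mark the unbroken run of C and T that begins with a C at the start itself. Fau, Rps10, Rps6 and Rps27 carry a run of at least 5. Rps2, Rps27l and Rps28, the most abundant members of KO embryos, do not, and neither do most of the 25 members. Rps27l and Rps28 were also the most abundant members of WT embryos.
Fau: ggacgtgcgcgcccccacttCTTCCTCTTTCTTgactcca
Rps10: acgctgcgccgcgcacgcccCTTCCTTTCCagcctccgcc
Rps6: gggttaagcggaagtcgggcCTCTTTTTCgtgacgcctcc
Rps27: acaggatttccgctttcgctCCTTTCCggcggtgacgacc
Rps2: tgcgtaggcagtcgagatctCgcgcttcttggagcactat
Rps27l: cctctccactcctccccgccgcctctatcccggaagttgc
Rps28: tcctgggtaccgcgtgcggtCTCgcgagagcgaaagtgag

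These windows lie at chr19:6057927-6057966, plus strand (Fau), chr17:27635225-27635264, minus strand (Rps10), and chr4:86857348-86857387, minus strand (Rps6). That of Rps27 lies at chr3:90213629-90213668, minus strand, that of Rps2 at chr17:24720043-24720082, plus strand, that of Rps27l at chr9:66946066-66946105, plus strand and that of Rps28 at chr17:33824543-33824582, minus strand. A start of this kind was found in 7 of 25 members (28%), namely these 4 with Rps15a, Rps18 and Rps21. Among the 9033 genes of the table with a window, 282 (3.12%) had one. A looser search, for a run of 7 or more pyrimidines that begins with a C anywhere within the same window, found 15 of 25 members (60%) and 22.6% of those genes. In each search a gene with several windows counted if any of them matched. The letters CTTCC or CTTTCC on the gene's strand were in 9 of 25 members (36%) and in 14.8% of those genes. The share of members with a motif rests on annotated starts, and a start that differs by a few bases can change the call.

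At their other end the transcripts were short. In the GENCODE M21 annotation, 33 members were matched, with a median transcript length of 761 bases against 2744 bases over 10565 genes of the table, and a median 3′ untranslated region of 56 bases against 885 bases. Deadenylated maternal messages are often re-activated through the cytoplasmic polyadenylation element, and TTTTAT or TTTTAAT was searched on the sense strand in the last 150 bases of each 3′ untranslated region. It was found in 4 of 33 members (12.1%) and in 24.5% of those genes. A region shorter than 150 bases was searched over its own length only, so most members offered fewer bases than most genes. The 2 shares are therefore not for like lengths, and no lower rate in members can be read from them. One match in each of these 4 members is shown with the motif in capitals, because Rps2 and Rps27l, described below, are among them. Rps27l holds 2 matches, of which the one nearer the 3′ end is shown.
Rps2: gggtTTTTATatgagaaa
Rps24: aggctgtaTTTTATcaatttgt
Rps27l: caataaagTTTTAATtatgg
Rps3a: atccagatTTTTAATagtgacaa

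Rps2, Rps24, Rps27l and Rps3a lie on chromosomes 17, 14, 9 and 3 of GRCm38. The hexamer AATAAA stood in the last 40 bases of the 3′ untranslated region of 28 of the 33 transcripts (84.8%), against 61.5% of all matched genes. A match describes letters only, and whether these elements act in the oocyte was not tested.

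In GV oocytes the small-subunit messages were abundant, close in level between genotypes, and ranked near the top of the transcriptome. Group means of the members ran from 36.1 FPKM (Rps15a) to 1450.1 FPKM (Rps29) in KO oocytes, and from 31.5 FPKM (Rps15a) to 1299.8 FPKM (Rps29) in WT oocytes. Rps29, a small zinc-binding protein of the subunit head, had 1372 and 1528 FPKM in KO oocytes and 1214 and 1385 FPKM in WT oocytes. Rps13, which bridges to the large subunit, was next, with 1130.2 and 1267 FPKM in KO and 985 and 1100.5 FPKM in WT oocytes. The groups of Rps13 did not overlap, those of Rps29 did. Rps3, which lines the channel where messenger RNA enters, had 54.9 and 56.2 FPKM in KO and 51.6 and 53.5 FPKM in WT oocytes, and Rps15a had 35.3 and 36.9 FPKM in KO and 30.5 and 32.5 FPKM in WT oocytes. Together the 34 genes summed to 14834 ± 1084 FPKM in KO and 13743 ± 909 FPKM in WT oocytes (SD, n = 2 each). This was 2.45 ± 0.191% and 2.33 ± 0.0978% of all FPKM in the library, summed here and below over the 11298 genes of the table. The median percentile of the members among the genes of a library was 97.4 in KO and 97.5 in WT oocytes.

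No member was called between KO and WT oocytes, with limma at an adjusted p under 0.05. The background was 0.584% of all genes higher and 1.04% lower in KO. At an unadjusted p under 0.05 the counts of members were also 0 higher and 0 lower, and the fit before the factor, which leaves oocyte values as they are, also gave 0 and 0 (0.876% and 1.69% of all genes). The log2 fold change was above 0 for 33 of 34 members, with a median of 0.14 against -0.02 over all genes. It was above 0 for 4756 of all 11298 genes and for 47 of 53 large-subunit genes, whose median was 0.12. The small shift was thus not particular to the small subunit. The largest positive one was Rps21, with 0.26 ± 0.22 (SE, limma adjusted p = 1). Both KO libraries lay above both WT libraries for 13 members, against 10.6% of all genes. The fusion genes Rps27a and Fau, each of which encodes a ubiquitin or ubiquitin-like protein joined to a ribosomal protein, were in that set. Rps27a had 389 and 436 FPKM in KO and 344 and 376 FPKM in WT oocytes. Fau had 531 and 595 FPKM in KO and 514 and 526 FPKM in WT oocytes. Rpsa, on the solvent side of the subunit, overlapped, with 97.1 and 105 FPKM in KO and 92.1 and 99.9 FPKM in WT oocytes. Rps27l had 667 and 839 FPKM in KO and 639.6 and 683 FPKM in WT oocytes. The other lists of the pathway gave 0 calls at this stage, except for 1 lower gene among 14 mTOR, S6 kinase and TOP regulator genes. In the fit before the factor 2 of those 14 were called lower.

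Rps27 stood apart, since its libraries of 1 group differed from each other. It encodes a zinc-binding protein of the platform side of the subunit. It had 298.9 FPKM in KO GV replicate 1 and 1 FPKM, the floor, in KO GV replicate 2, against 410.4 and 412 FPKM in WT oocytes. It was at the floor in all 4 libraries of 1-cell embryos. At the 2-cell stage it had 22.7 and 1 FPKM in KO and 26.7 and 2.00 FPKM in WT embryos, so that in each genotype 1 library was far above the other. Among 1147 genes with at least 3 oocyte libraries at 100 FPKM or more, Rps27 alone had the remaining one at the floor. The log2 fold change in KO against WT oocytes was -4.07 ± 2.06 (SE, limma adjusted p = 0.707). It was -0.46 without KO GV replicate 2 and -7.69 without KO GV replicate 1 (adjusted p = 1 and 0.0394 in limma), and adjusted p lay between 0.0394 and 1 over all alternatives tried. The gene has a close paralog, Rps27l, and a near-identical copy, Rps27rt, which was not analysed here, so the assignment of reads among the copies is uncertain. Ribosomal protein genes also have many processed pseudogenes, and how the authors assigned reads shared with them is not given in the sources used here. For Rps27 the KO against WT values are therefore given with no direction.

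**Figure D1:**
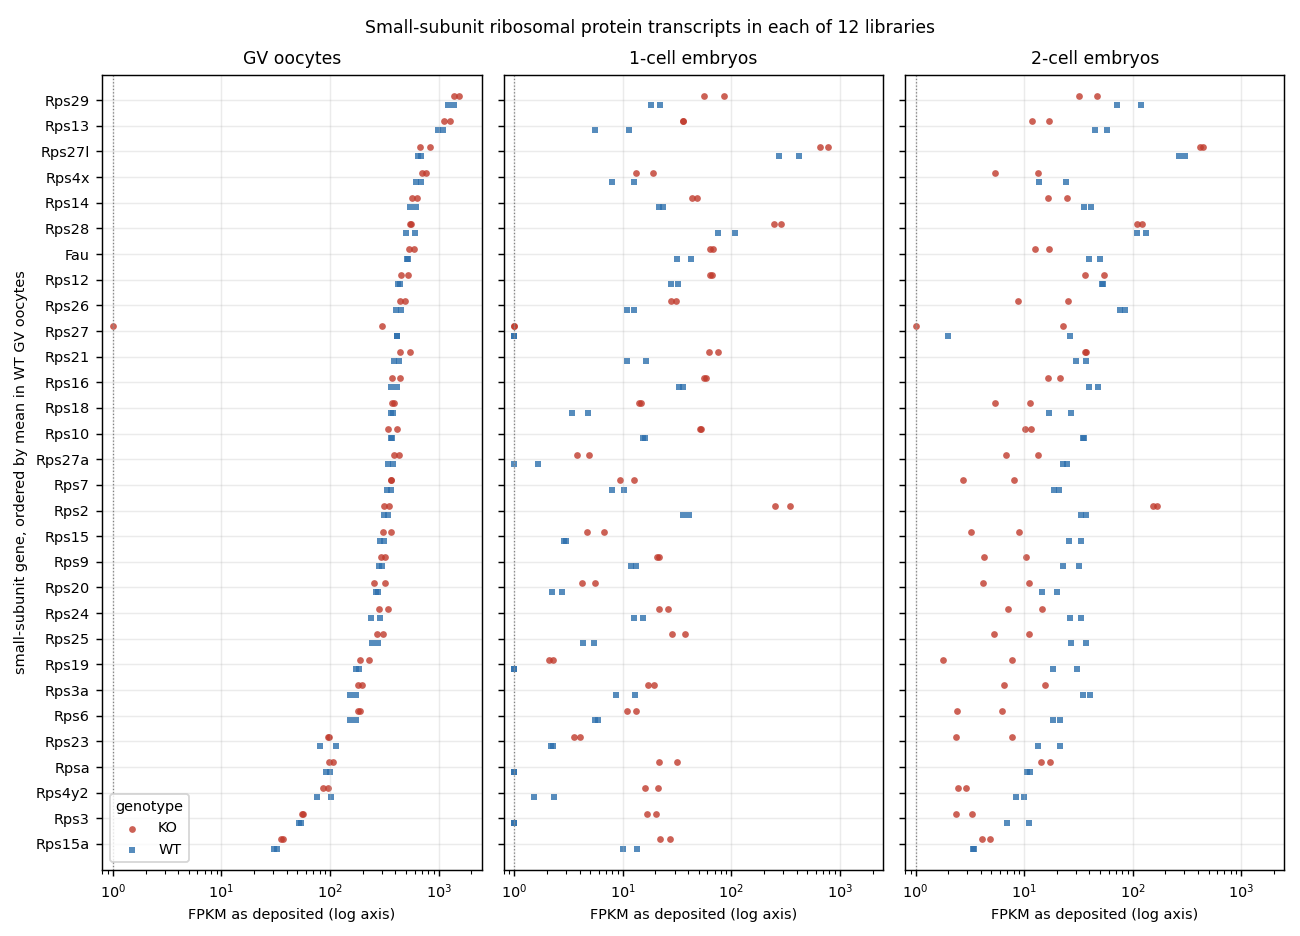
FPKM of 30 of the 34 small-subunit genes in each library on a log axis, 1 panel per stage, with KO libraries as red circles and WT libraries as blue squares, ordered by the mean in WT GV oocytes. In oocytes KO and WT points lie together except for Rps27, at the 1-cell stage most KO points lie to the right of WT, and at the 2-cell stage most KO points lie to the left of WT, with Rps2 and Rps27l as visible exceptions.

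Between the oocyte and the 1-cell embryo of WT mice, every small-subunit message fell on the deposited scale. The median member kept 2.67% of its oocyte mean, and Rps27l kept the most, 52.6%, when Rps27 is left aside. All 34 members were called lower in WT 1-cell embryos than in WT GV oocytes, where 85.8% of all genes were called lower and 0.0354% higher. The median log2 change was -4.87 over members and -1.49 over all genes. Before the factor the median change over all genes was 0.00 and that of the members -3.14, with 30 called lower (26.7% of all genes) and 1 higher (11.4%).

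Rps27a had 1.66 and 1 FPKM in WT 1-cell embryos, against 344 and 376 FPKM in WT oocytes, with a log2 change of -7.29 ± 0.27 (SE, limma adjusted p = 7.15e-08). Rps13 had 11.4 and 5.52 FPKM in 1-cell embryos, against 985 and 1100.5 FPKM in oocytes, with -6.86 ± 0.29 (SE, limma adjusted p = 1.05e-07). Oocyte and embryo libraries were thus far apart for both genes. Rps19, which is mutated in human Diamond-Blackfan anaemia, was at the floor in both 1-cell libraries, against 174 and 184 FPKM in oocytes, with -6.49 ± 0.45 (SE, limma adjusted p = 1.02e-06). Rpsa was also at the floor in both, against 92.1 and 99.9 FPKM, with -5.60 ± 0.19 (SE, limma adjusted p = 6.32e-08). For Rps19 and Rpsa the size of the fall depends on where the floor lies. Fau fell less, to 42.4 and 31.8 FPKM, against 514 and 526 FPKM in oocytes, with -3.79 ± 0.20 (SE, limma adjusted p = 2.52e-07). Rps27 was called too (-7.69 ± 2.06, SE, limma adjusted p = 0.00589), and that call was lost before the factor (adjusted p = 0.0652) and with median-ratio size factors (adjusted p = 0.0991).

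Rps15a and Rps27l fell least. Rps27l, the paralog of Rps27 and a p53 target, had 419 and 276 FPKM in WT 1-cell embryos, against 639.6 and 683 FPKM in WT oocytes, a log2 change of -0.96 ± 0.23 (SE, limma adjusted p = 0.00297). Before the factor its change was 1.11 (adjusted p = 0.0108, limma), which made it the 1 member called higher there. Rps15a had 13.6 and 10.1 FPKM in 1-cell embryos, against 30.5 and 32.5 FPKM in oocytes, a log2 change of -1.35 ± 0.17 (SE, limma adjusted p = 5.24e-05), against 0.62 before the factor (adjusted p = 0.0515). The direction of both genes thus depended on the scale. Of the other lists, 52 of 53 large-subunit, 30 of 30 mitochondrial small-subunit, 46 of 47 small-subunit assembly, 28 of 28 initiation and recycling factor and 13 of 14 mTOR and TOP regulator genes were also called lower on the deposited scale. Before the factor these counts were 49, 23, 24, 16 and 0, with 0, 0, 3, 1 and 4 called higher.

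From the 1-cell to the 2-cell embryo of WT mice, small-subunit messages rose again. On the deposited scale 25 members were called higher and 1 lower in WT 2-cell embryos, where 9.45% of all genes were called higher and 29% lower. The median log2 change was 1.58 over members and 0.00 over all genes. Before the factor 31 members were called higher (20.2% of all genes) and 1 lower (15%). On the deposited scale the median member stood at 10.1% of its oocyte mean at the 2-cell stage, and the range over members was 2.89% (Rps4x) to 43.4% (Rps27l). Before the factor some members stood above their oocyte level, such as Rps26 with 662 and 694 FPKM against 405 and 448 FPKM in WT oocytes. Others stood under it, such as Rps4x with 118 and 196 FPKM against 619 and 688 FPKM. The direction of this net change thus depended on the scale for some members.

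Rps19 had 18.5 and 30.9 FPKM in WT 2-cell embryos, against the floor in both 1-cell libraries (log2 3.64 ± 0.45 SE, limma adjusted p = 0.000186). Rps27a had 22.7 and 25.1 FPKM in 2-cell embryos, against 1.66 and 1 FPKM in 1-cell embryos (log2 3.43 ± 0.27 SE, limma adjusted p = 1.74e-05). No 2-cell library of these genes overlapped a 1-cell library. Rps15, which helps the subunit leave the nucleus, had 25.8 and 33.2 FPKM in 2-cell embryos, against 2.86 and 3.02 FPKM in 1-cell embryos (log2 2.94 ± 0.35 SE, limma adjusted p = 0.000147). Rps26, which contacts messenger RNA at the exit channel, had 76.9 and 85.1 FPKM, against 12.6 and 10.9 FPKM (log2 2.69 ± 0.37 SE, limma adjusted p = 0.000355). Rpsa had 10.5 and 11.5 FPKM, against the floor in both 1-cell libraries (log2 2.58 ± 0.19 SE, limma adjusted p = 1.17e-05). The groups of these 3 genes did not overlap either. Rps15a was the 1 member that fell, with 3.47 and 3.41 FPKM in 2-cell embryos, against 13.6 and 10.1 FPKM in 1-cell embryos (log2 -1.52 ± 0.17 SE, limma adjusted p = 0.000118).

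The 8 members without a call at this step included Rps27l, Rps28, Rps2 and Fau. Rps27l had 304 and 269.6 FPKM in WT 2-cell embryos, against 419 and 276 FPKM in WT 1-cell embryos (log2 -0.25, limma adjusted p = 0.545). Rps28 had 110.1 and 134 FPKM, against 108 and 75.2 FPKM (log2 0.43, adjusted p = 0.155), and Rps2 had 37.5 and 33.7 FPKM, against 36.2 and 40.97 FPKM (log2 -0.11, adjusted p = 0.913). Fau had 39.8 and 49.5 FPKM, against 42.4 and 31.8 FPKM (log2 0.27, adjusted p = 0.402). The FPKM before the factor gave adjusted p values of 0.0265, 0.000479, 0.00465 and 0.000259 for these 4 genes, all with a positive change, so that each was called higher there. Without WT 1-cell replicate 1, Rps28 was called on the deposited scale too (adjusted p = 0.0372). Of the large-subunit genes, 38 of 53 were called higher and 2 lower on the deposited scale. Mitochondrial small-subunit genes were called higher in 5 and lower in 14 of 30, assembly factors in 10 and 10 of 47, initiation and recycling factors in 7 and 10 of 28, and mTOR and TOP regulators in 1 and 3 of 14. Before the factor, in the same order from the large-subunit genes on, 49, 11, 22, 15 and 4 were called higher and 0, 5, 6, 6 and 1 lower. The prevailing direction of the mitochondrial and the initiation and recycling lists thus turned with the scale.

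In 1-cell embryos, KO libraries kept more of many small-subunit messages than WT libraries on the deposited scale, and a smaller set stayed apart before the factor. The median member kept 7.17% of its oocyte mean in KO and 2.67% in WT embryos. KO was called higher than WT for 21 members and lower for 0, where 52.7% of all genes were called higher and 0.0974% lower. The share of members called was thus close to that of all genes. The median log2 fold change was 0.99 over members and 0.57 over all genes. Before the factor those medians were 0.04 and 0.00, with 9 members called higher (7.36% of all genes) and 0 lower (2.26%). Both KO libraries lay above both WT libraries for 31 members on the deposited scale (64.3% of all genes) and for 13 before the factor (20.7%), and below for 0 on the deposited scale (0.327%) and 8 before the factor (14.9%).

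Among the 9 members called higher in KO on both scales were Rpsa, Rps3, Rps2, Rps4y2 and Rps25. Rpsa had 21.6 and 31.7 FPKM in KO 1-cell embryos, against the floor of 1 in both WT libraries. The log2 fold change was 3.76 ± 0.19 (SE, limma adjusted p = 9.63e-06) on the deposited scale and 3.26 before the factor (adjusted p = 4.04e-05). Rps3 had 16.7 and 20.03 FPKM in KO embryos, also against the floor in both WT libraries, with 3.27 ± 0.21 (SE, limma adjusted p = 1.83e-05) and with 2.75 before the factor (adjusted p = 0.000161). Both genes were at or under 105.4 FPKM in every oocyte library, so neither was among the abundant members at the start. Since the WT libraries were at the floor, the size of both differences depends on where the floor lies.

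Rps2, which sits at the message entry side and takes part in decoding fidelity, lay well above the floor in both genotypes. It had 250.5 and 350.0 FPKM in KO 1-cell embryos, against 36.2 and 40.97 FPKM in WT 1-cell embryos, a ratio of group means of 7.79. Its log2 fold change was 2.91 ± 0.19 (SE, limma adjusted p = 1.92e-05) on the deposited scale and 1.91 before the factor (adjusted p = 0.000571). Before the factor the values were 579.7 and 635 FPKM in KO and 134 and 193 FPKM in WT embryos, so the groups did not overlap on either scale. Rps4y2 had 16.1 and 21.2 FPKM in KO, against 2.35 and 1.51 FPKM in WT embryos (log2 2.75 ± 0.22 SE, limma adjusted p = 4.56e-05), and 2.13 before the factor (adjusted p = 0.000216). Its sequence is related to Rps4x, so reads may be shared between them. Rps25, a protein of the head used by several viral entry sites on the ribosome, had 37.3 and 28.6 FPKM in KO, against 5.40 and 4.31 FPKM in WT embryos (log2 2.53 ± 0.30 SE, limma adjusted p = 0.000314). With median-ratio size factors the Rps25 call was lost (adjusted p = 0.0614). Rps21 and Rps10 were also called on both scales, with log2 2.29 and 1.67 on the deposited scale and 1.33 and 0.69 before the factor.

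For the remaining 12 called members the call held on the deposited scale and not before the factor. Rps27l had 784 and 662 FPKM in KO, against 419 and 276 FPKM in WT 1-cell embryos (log2 1.08 ± 0.23 SE, limma adjusted p = 0.00426), and 1814 and 1201 FPKM in KO against 1555 and 1301 FPKM in WT embryos before the factor. Those groups did not overlap on the deposited scale and did overlap before the factor. Rps27a had 4.89 and 3.78 FPKM in KO, against 1.66 and 1 FPKM in WT embryos (log2 1.20 ± 0.27, adjusted p = 0.00602, and 0.313 before the factor, limma). The direction itself turned for 3 of them. Fau had 63.6 and 68.4 FPKM in KO, against 42.4 and 31.8 FPKM in WT embryos, with log2 0.83 (adjusted p = 0.00799) on the deposited scale and -0.18 before the factor (adjusted p = 0.755). Rps14 had 48.1 and 43.02 FPKM in KO, against 23.3 and 21.7 FPKM in WT embryos, with log2 0.99 and -0.01 before the factor. Rps16 had 57.9 and 56.4 FPKM in KO, against 36.2 and 32.99 FPKM in WT embryos, with log2 0.71 and -0.30 before the factor. Without WT 1-cell replicate 2, the calls of Rps27a, Fau and Rps16 were lost (adjusted p = 0.0527, 0.0606 and 0.0577). Which of the scales reflects the amount per embryo was not tested.

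In the other lists the genes called higher were 40 of 53 large-subunit, 26 of 30 mitochondrial small-subunit, 30 of 47 assembly, 23 of 28 initiation and recycling factor and 8 of 14 mTOR and TOP regulator genes, with 0 called lower in each. Before the factor the counts were 10, 3, 9, 8 and 0 higher and 2, 0, 0, 1 and 0 lower. All 9 oocyte markers were also called higher in KO 1-cell embryos on the deposited scale, where their summed level was 6282 and 7907 FPKM in KO, against 2738 and 2165 FPKM in WT embryos. Before the factor 5 of these 9 markers were called higher and 0 lower, and their median log2 fold change was 0.66, against 1.61 on the deposited scale. Their part in the result was not tested. With only the 4 libraries of 1-cell embryos in the fit, 9 members were called higher.

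**Figure D2:**
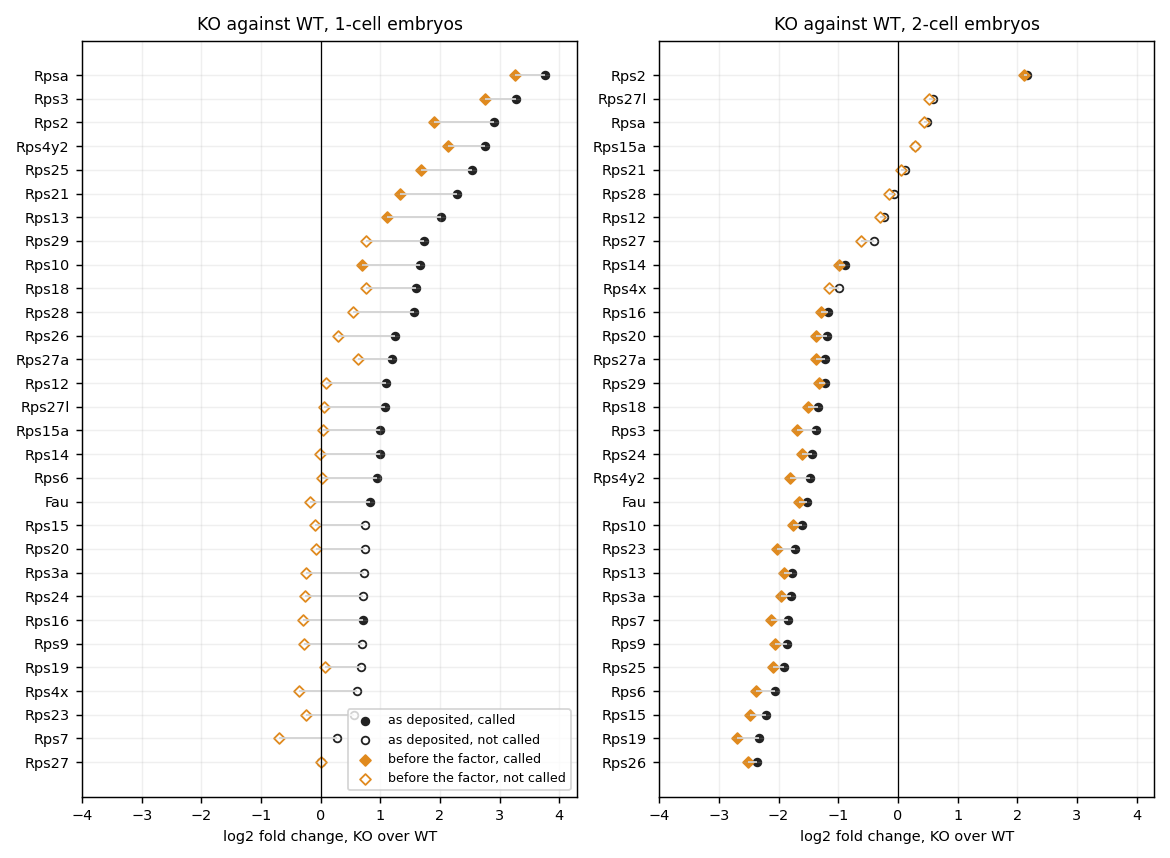
Log2 fold change of KO over WT for 30 of the 34 genes at the 1-cell stage (left) and the 2-cell stage (right), as black circles on the deposited scale and as orange diamonds before the library factor, with filled symbols for calls at an adjusted p under 0.05 in limma. At the 1-cell stage the deposited values lie to the right of those before the factor and 21 against 9 of the 34 genes are called higher, with Fau, Rps14 and Rps16 on the other side of 0 before the factor, whereas at the 2-cell stage both scales call 25 of the 34 genes lower and Rps2 higher.

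In 2-cell embryos most small-subunit messages were lower in KO. KO was called lower than WT for 25 members and higher for 1, where 12% of all genes were called lower and 7.56% higher. Before the factor the counts were also 25 and 1 (17.8% and 10.6% of all genes), and the factors of the 4 libraries lay between 0.116 and 0.130. The median log2 fold change was -1.46 over members and 0.00 over all genes, and -1.68 and 0.00 before the factor. In a 2-cell library 5121 to 6561 of all genes were at the floor, against 0 or 1 of the members. Genes at the floor in all 4 libraries count as 0 in these medians and as not called in the shares, which limits the contrast with members. The ratio of group means, KO over WT, had a median of 0.322 and was highest for Rps2, at 4.55. Both KO libraries lay below both WT libraries for 26 members (24.7% of all genes) and above for 4 (18.8%), namely Rps2, Rps27l, Rps15a and Rpsa. The summed FPKM of the 34 genes was 1105 ± 134 in KO and 1488 ± 160 in WT embryos (SD, n = 2 each).

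Rps26 had 25.2 and 8.74 FPKM in KO 2-cell embryos, against 76.9 and 85.1 FPKM in WT 2-cell embryos (log2 -2.36 ± 0.37 SE, limma adjusted p = 0.00186). Rps19 had 7.76 and 1.80 FPKM in KO, against 18.5 and 30.9 FPKM in WT embryos (log2 -2.33 ± 0.45 SE, limma adjusted p = 0.00557). In both genes KO replicate 2 was the lower KO library and KO replicate 1 was still under both WT libraries. Fau had 17.01 and 12.7 FPKM in KO, against 39.8 and 49.5 FPKM in WT embryos (log2 -1.53 ± 0.20 SE, limma adjusted p = 0.000717), and Rps27a had 13.5 and 6.88 FPKM in KO, against 22.7 and 25.1 FPKM in WT embryos (log2 -1.22 ± 0.27 SE, limma adjusted p = 0.0123). The groups of Fau and Rps27a did not overlap either. The Rps19 call was lost without WT 2-cell replicate 2 (adjusted p = 0.0829), and that of Rps27a without any 1 of WT replicate 1, WT replicate 2 or KO replicate 2.

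Rps2 was the 1 member called higher in KO, with 169 and 156 FPKM in KO 2-cell embryos, against 37.5 and 33.7 FPKM in WT 2-cell embryos. Its log2 fold change was 2.16 ± 0.19 (SE, limma adjusted p = 6.68e-05), and 2.11 before the factor (adjusted p = 5.92e-05). The 2 libraries of each genotype were close to each other and the groups were far apart. Rps27l had 419.8 and 447 FPKM in KO, against 304 and 269.6 FPKM in WT embryos (log2 0.60 ± 0.23, adjusted p = 0.113), and Rpsa had 14.2 and 17.5 FPKM in KO, against 10.5 and 11.5 FPKM in WT embryos (log2 0.48 ± 0.19, adjusted p = 0.125). Neither was called, although their groups did not overlap, and under median-ratio size factors or quantile normalization Rpsa was called higher (adjusted p = 0.0187 and 0.0267). The others without a call were Rps4x, Rps12, Rps15a, Rps21, Rps27 and Rps28. Rps28, a protein at the exit site, had 122 and 110.0 FPKM in KO, against 110.1 and 134 FPKM in WT embryos (log2 -0.07, adjusted p = 1), and was called lower with quantile normalization alone (log2 -0.62, adjusted p = 0.0141).

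Of the 53 large-subunit genes, 35 were called lower and 2 higher in KO 2-cell embryos. Of the assembly factors 21 of 47 were called lower and 1 higher, of the mitochondrial small-subunit genes 8 and 3 of 30, of the initiation and recycling factors 7 and 3 of 28, and of the mTOR and TOP regulators 2 and 1 of 14. Before the factor, in the same order from the large-subunit genes on, 39, 27, 13, 12 and 3 were called lower and 2, 1, 3, 4 and 1 higher. Single libraries moved the count of small-subunit genes called lower. It was 15 without WT 2-cell replicate 2, 19 without KO 2-cell replicate 2, and 2 with only the 4 libraries of 2-cell embryos in the fit. Of 7 listed markers of the 2-cell stage 3 were in the table, Tdpoz1, Tdpoz4 and Dppa2, and these were called lower in KO as well. Their sums were 5.09 and 5.75 FPKM in KO and 15.1 and 18.04 FPKM in WT embryos. Most of each sum was Dppa2, which had 138 to 157 FPKM in the oocyte libraries and so did not mark the 2-cell stage here. Tdpoz1 and Tdpoz4 were near the floor, at 2.06 to 3.81 FPKM in WT 2-cell embryos. Of the oocyte markers 4 of 9 were called higher in KO (5 before the factor), and the sums of all 9 were 1128 and 1214 FPKM in KO and 446 and 441 FPKM in WT embryos. The part of these differences in the result for the small subunit was not tested.

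**Figure D3:**
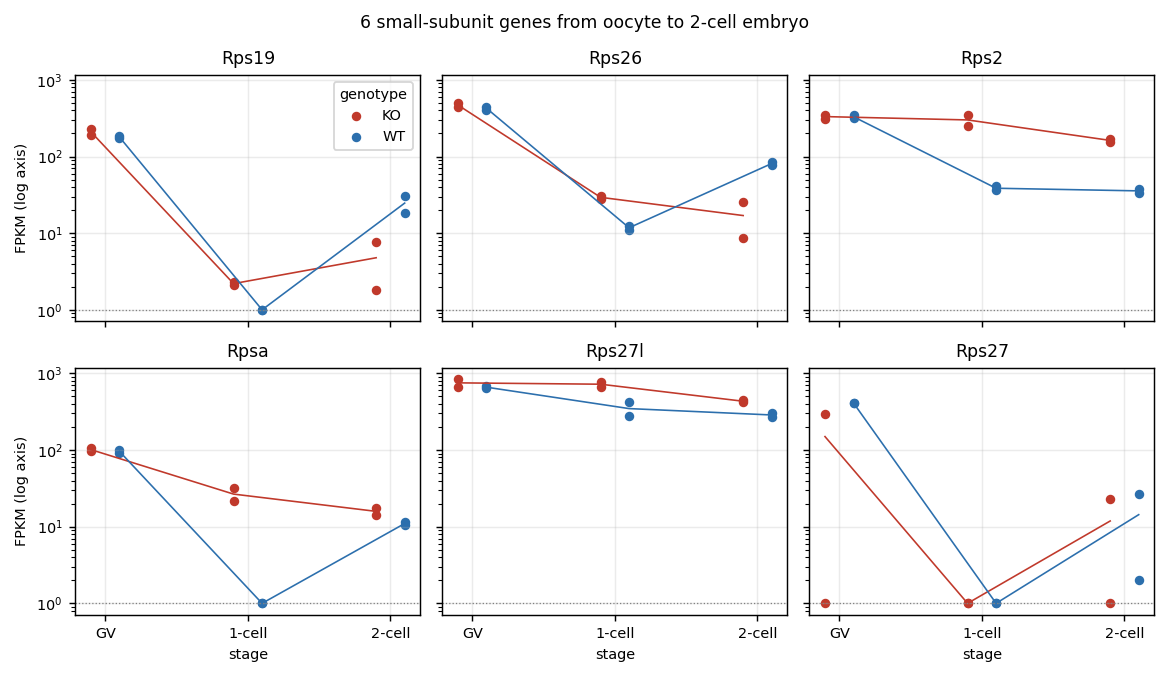
FPKM on a log axis of 6 members at the GV, 1-cell and 2-cell stages, with KO libraries in red, WT libraries in blue and lines through the group means, and a dotted line at the floor of 1 FPKM. Rps19 and Rps26 end lower in KO than in WT at the 2-cell stage, Rps2 stays higher in KO at both embryo stages, Rpsa and Rps19 are at the floor in both WT 1-cell libraries, Rps27l stays at 269.6 FPKM or more in every library, and Rps27 differs between libraries of the same group.

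Within KO mice, 31 members were called lower and 0 higher in 1-cell embryos than in GV oocytes, where 66.9% of all genes were called lower and 0.23% higher. Before the factor 28 were called lower (20.7% of all genes) and 2 higher (9.18%), namely Rps2 and Rps27l. The median log2 change was -3.68 over members and -0.74 over all genes on the deposited scale. Rps27a, with 4.89 and 3.78 FPKM in KO 1-cell embryos against 389 and 436 FPKM in KO oocytes, changed most (log2 -6.28 ± 0.27 SE, limma adjusted p = 3.09e-07). Rps19 had 2.29 and 2.099 FPKM, against 189 and 230.2 FPKM (log2 -6.04 ± 0.45 SE, limma adjusted p = 3.48e-06). Both were also among the 5 steepest in WT. Rps15 had 4.65 and 6.65 FPKM, against 305 and 364 FPKM (log2 -5.67 ± 0.35 SE, limma adjusted p = 1.23e-06), and Rps20 had 4.17 and 5.52 FPKM, against 252 and 321 FPKM (log2 -5.62 ± 0.35 SE, limma adjusted p = 1.43e-06). Rps2 had 250.5 and 350.0 FPKM in KO 1-cell embryos, against 311 and 353 FPKM in KO oocytes (log2 -0.16, adjusted p = 0.47). Rps27l had 784 and 662 FPKM, against 667 and 839 FPKM (log2 -0.05, adjusted p = 0.883). Rps15a, called lower on the deposited scale (log2 -0.54 ± 0.17 SE, limma adjusted p = 0.0201), had a change of 0.47 before the factor, and its call was lost without KO GV replicate 2 or KO 1-cell replicate 2 (adjusted p = 0.0693 and 0.0934).

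From the 1-cell to the 2-cell embryo of KO mice the direction depended on the scale. On the deposited scale 23 members were called lower and 1, Rps27a, higher in KO 2-cell embryos, where 60.7% of all genes were called lower and 0.646% higher. Before the factor 3 were called lower (16% of all genes) and 16 higher (9.85%). The median log2 change was -0.99 over members and -0.84 over all genes on the deposited scale, and 0.88 and 0.00 before the factor. Rps4y2 and Rps3 were among the 3 genes called lower on the deposited scale and before the factor. Rps4y2 had 2.90 and 2.46 FPKM in KO 2-cell embryos, against 16.1 and 21.2 FPKM in KO 1-cell embryos (log2 -2.41 ± 0.22 SE, limma adjusted p = 1.39e-05), and Rps3 had 3.28 and 2.35 FPKM, against 16.7 and 20.03 FPKM (log2 -2.35 ± 0.21 SE, limma adjusted p = 1.29e-05). Groups did not overlap in either gene. The Rps3 call was lost with median-ratio size factors (log2 -0.64, adjusted p = 0.0505) and with quantile normalization (log2 -0.38, adjusted p = 0.0895). Rps27a had 13.5 and 6.88 FPKM in 2-cell embryos, against 4.89 and 3.78 FPKM in 1-cell embryos (log2 1.01 ± 0.27 SE, limma adjusted p = 0.00914), and 2.84 before the factor (adjusted p = 0.000126). Its call on the deposited scale was lost without KO 1-cell replicate 2 or KO 2-cell replicate 1 (adjusted p = 0.0671 and 0.0617), and 4 members were called higher without KO 2-cell replicate 2.

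Rps15a (4.07 and 4.82 FPKM in KO 2-cell embryos, against 27.2 and 22.02 FPKM in KO 1-cell embryos) and Rps10 (11.6 and 10.2 FPKM, against 51.4 and 52.2 FPKM) were called lower on the deposited scale (limma adjusted p = 6.43e-06 and 3.52e-06) and not before the factor (0.131 and 0.363). For 16 members called lower the change was positive before the factor, among them Rps16, Rps9, Rps6 and Rps13. Rps16 had 16.5 and 21.3 FPKM in 2-cell embryos, against 57.9 and 56.4 FPKM in 1-cell embryos, and Rps9 had 10.5 and 4.28 FPKM, against 20.5 and 21.5 FPKM. Rps6, the target of the S6 kinases, had 6.32 and 2.41 FPKM, against 13.2 and 10.9 FPKM, and Rps13 had 16.9 and 11.9 FPKM, against 35.6 and 35.5 FPKM. These 4 changed by log2 -1.56 (Rps16) to -1.27 (Rps13) on the deposited scale, and by 0.31 (Rps9) to 0.62 (Rps13) before the factor. Rpsa had 14.2 and 17.5 FPKM, against 21.6 and 31.7 FPKM, and was called lower on the deposited scale (-0.70, limma adjusted p = 0.00961) and higher before the factor (1.21, adjusted p = 0.000566). Rps27l had 419.8 and 447 FPKM, against 784 and 662 FPKM, with -0.73 on the deposited scale (adjusted p = 0.0182) and 1.22 before the factor (adjusted p = 0.00379). The direction of a called change in both thus turned with the scale, and on the deposited scale the call of Rpsa was lost without KO 1-cell replicate 2 or KO 2-cell replicate 1, and that of Rps27l without KO 1-cell replicate 1, KO 2-cell replicate 1 or KO 2-cell replicate 2. Fau had 17.01 and 12.7 FPKM, against 63.6 and 68.4 FPKM, and was called lower on the deposited scale (log2 -2.09 ± 0.20 SE, limma adjusted p = 1.96e-05) and not before the factor (adjusted p = 0.519).

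The difference between genotypes in these steps was tested as an interaction in the same fit. For the step to the 1-cell embryo, KO minus WT was called higher for 15 members and lower for 0, where 38.7% of all genes were called higher and 0.859% lower. Before the factor 4 members were called higher (3.57% of all genes) and 0 lower (0.947%), and these were Rpsa, Rps3, Rps2 and Rps4y2. Their interaction terms on the deposited scale were 3.69 ± 0.27, 3.19 ± 0.29, 2.91 ± 0.26 and 2.70 ± 0.31 log2 units (SE), with limma adjusted p values of 0.000206, 0.000371, 0.000352 and 0.000877. That of Rps25, 2.39 ± 0.43 (SE, limma adjusted p = 0.00485), was called on the deposited scale only. Rps14, Rps12 and Rps15a had positive terms on the deposited scale, 0.94, 0.92 and 0.81 (adjusted p = 0.0297, 0.0299 and 0.0298), and negative ones before the factor, -0.06, -0.08 and -0.16. Each of these 3 calls was lost without WT GV replicate 1, without WT GV replicate 2, without KO GV replicate 1 or without WT 1-cell replicate 2, those of Rps14 and Rps12 also without KO 1-cell replicate 2, and that of Rps14 also without KO 1-cell replicate 1. Rps12 had 63.5 and 66.1 FPKM in KO and 32.2 and 27.6 FPKM in WT 1-cell embryos, and 451 and 523 FPKM in KO and 421 and 439 FPKM in WT oocytes. Rps14 had 574 and 635 FPKM in KO and 547 and 622 FPKM in WT oocytes. Rps27a, Rps27l and Fau were not called, with 1.01, 0.90 and 0.72 (adjusted p = 0.0637, 0.0514 and 0.0697), and Rps27l and Fau were called without WT 1-cell replicate 1 (adjusted p = 0.0141 and 0.0371). Between 10 and 17 members were called when 1 library was left out, and 10 were called without WT GV replicate 1, without WT GV replicate 2 or without WT 1-cell replicate 2.

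For the step from the 1-cell to the 2-cell embryo, KO minus WT was called lower for 30 members and higher for 0, where 35.7% of all genes were called lower and 0.239% higher. Before the factor it was called lower for 22 (14.8% of all genes) and higher for 0 (5.29%). The median term was -2.53 over members and -0.53 over all genes on the deposited scale. Rps3 had the lowest, -4.65 ± 0.29 (SE, limma adjusted p = 2.19e-05), and Rps25 had -4.43 ± 0.43 (SE, limma adjusted p = 0.000135). Rps4y2 had -4.22 ± 0.31 (SE, limma adjusted p = 3.49e-05) and Rps13 had -3.80 ± 0.41 (SE, limma adjusted p = 0.000254). At the 2-cell stage Rps3 had 3.28 and 2.35 FPKM in KO and 7.03 and 11.03 FPKM in WT embryos, and Rps25 had 11.1 and 5.29 FPKM in KO and 26.9 and 37.3 FPKM in WT embryos. Rps4y2 had 2.90 and 2.46 FPKM in KO and 8.38 and 10.02 FPKM in WT embryos, and Rps13 had 16.9 and 11.9 FPKM in KO and 45.1 and 57.5 FPKM in WT embryos. KO was thus the lower genotype at the 2-cell stage in all 4 genes, and the higher one at the 1-cell stage. Rps15a had -0.71 ± 0.24 (SE, limma adjusted p = 0.0489), which turned to 0.25 before the factor, and on the deposited scale its call was lost without any 1 of 6 libraries (all but KO 1-cell replicate 2 and WT 1-cell replicate 1 of the 8 embryo libraries). Rpsa, Rps27a and Fau had -3.28, -2.42 and -2.36 (adjusted p = 5.94e-05, 0.00173 and 0.000407). Rps2, Rps27l, Rps4x and Rps27 were not called, with -0.75, -0.48, -1.60 and -0.40 (adjusted p = 0.0527, 0.282, 0.0544 and 1), although Rps2 was called without KO 1-cell replicate 1 and Rps4x without KO 2-cell replicate 1 (adjusted p = 0.0102 and 0.0169). The 2 interactions and the KO against WT comparisons share libraries and are not independent of each other. Of the 53 large-subunit genes 24 were called higher in the first interaction and 47 lower in the second, with 0 in the other direction. Before the factor these counts were 7 and 39, again with 0 in the other direction.

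Shares within a library depend on the factor only through values at the floor, and are given as a description. Beside the oocyte shares given above, small-subunit genes made 0.844 ± 0.145% of the summed FPKM of KO and 0.766 ± 0.0219% of that of WT 1-cell embryos. In 2-cell embryos they made 1.73 ± 0.220% of the total of KO and 2.63 ± 0.0934% of that of WT embryos (SD, n = 2 each). KO and WT libraries thus overlapped in share at the 1-cell stage and not at the 2-cell stage. An exact two-sided permutation test of 2 libraries against 2 cannot give a p under 0.333, so no test is given. The median percentile of the 34 genes was 83.4 ± 3.45 in KO and 83.9 ± 1.85 in WT embryos at the 1-cell stage. It was 90.3 ± 3.99 in KO and 97.7 ± 0.241 in WT embryos at the 2-cell stage. The value of WT 2-cell embryos was near that of oocytes. Large-subunit genes made 0.877 ± 0.157% in KO and 0.557 ± 0.0320% in WT embryos at the 1-cell stage. They made 1.15 ± 0.326% in KO and 3.15 ± 0.244% in WT embryos at the 2-cell stage.

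**Figure D4:**
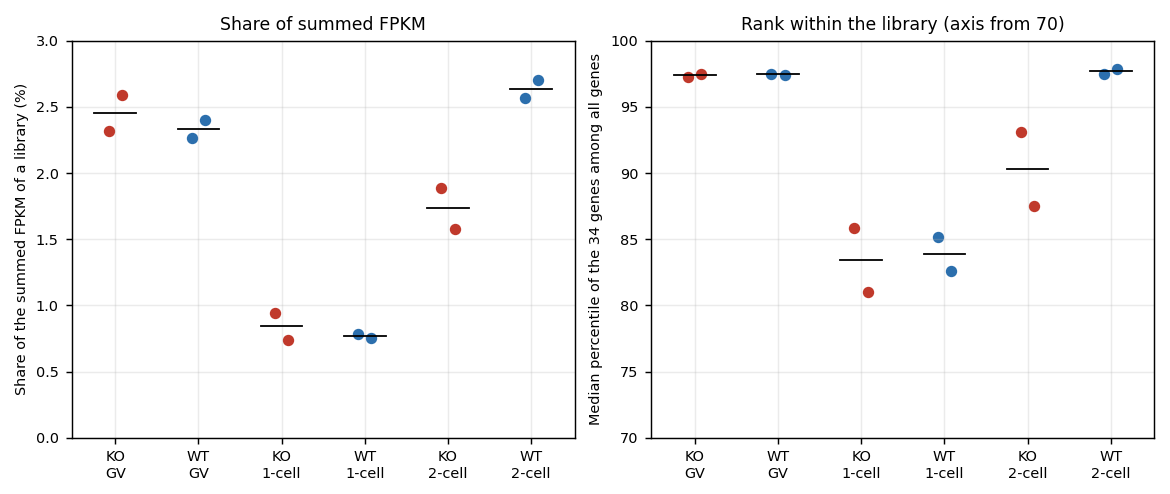
Left, share of each library's summed FPKM that comes from the 34 genes, in percent, and right, their median percentile among all genes of the table, on an axis from 70 to 100, with points for libraries and bars for group means. Shares and ranks are low in all 4 libraries of 1-cell embryos, and at the 2-cell stage both KO libraries lie under both WT libraries.

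The small-subunit pool also changed in make-up, as 3 genes chosen after their values were seen show. Rps27l, Rps28 and Rps2 together made 11.1% of the pool's FPKM in KO and 11.2% in WT GV oocytes. At the 1-cell stage they made 59.4% in KO and 55.1% in WT embryos. For 2-cell embryos the shares were 64.4% in KO and 29.9% in WT embryos. Rps27l alone made 35.0% and 31.3% of the pool in the KO and 42.2% and 37.2% in the WT libraries of 1-cell embryos. At the 2-cell stage it made 35.0% and 44.3% in KO and 22.1% and 16.8% in WT embryos. Rps2 made 14.1% and 15.4% of the pool in KO and 2.73% and 2.11% in WT 2-cell embryos. The pool of the KO 2-cell embryo thus held a share of these 3 genes nearer to that of the 1-cell embryos than to that of the WT 2-cell embryo, as a description of 2 libraries each. Without Rps27l, the most abundant member of every embryo library, the share of all FPKM was 0.562% (KO) and 0.462% (WT) at the 1-cell stage, and 1.05% (KO) and 2.12% (WT) at the 2-cell stage. FPKM are per length, but short transcripts are the least certain on this scale, and Rps27l is annotated with 499 bases. In addition, 8 members overlap another protein-coding or long noncoding gene (among them Rps2, Rps25, Rps27a, Rps4y2 and Rpsa), and 11 overlap small RNA genes. Whether reads were counted by strand is not given in the sources used here, so reads of such neighbours may be shared.

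**Figure D5:**
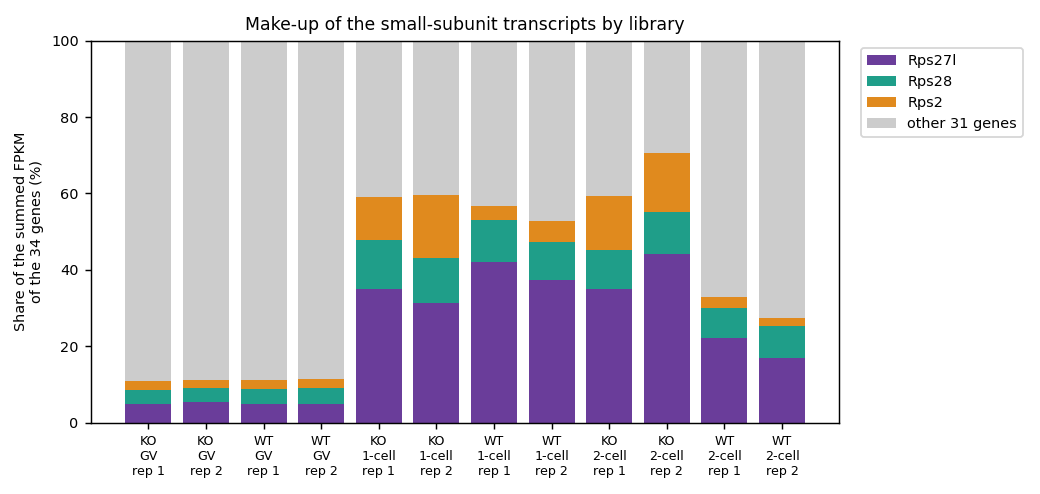
Share of the summed FPKM of the 34 genes in each of the 12 libraries, in percent, split into Rps27l, Rps28, Rps2 and the other 31 genes. The 3 genes hold 11.1% (KO) and 11.2% (WT) of the pool in oocytes, 59.4% (KO) and 55.1% (WT) in 1-cell embryos, and 64.4% (KO) and 29.9% (WT) in 2-cell embryos.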

How the data were processed

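RNA of 12 libraries (6 groups of 2) was compared. Values are FPKM as deposited. The submitters' processing notes name TopHat2 2.1.1, Cufflinks 2.2.1 and the mm9 genome, without their roles. The file holds no value under 1, and each embryo column is FPKM times 1 library factor, recovered here from its digits (100% of values came out as 6-digit numbers). Counts and depth are not known, so no interval for counting error is given.

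A single fit with limma 3.58.1 (R 4.3.3) on log2(FPKM + 1) used all 12 libraries and 11298 genes, with 1 mean per group, a mean-variance trend and Benjamini-Hochberg adjustment over all genes (threshold 0.05). Fold changes on this scale understate those of low genes. The fit was also run on simulated data, with changes placed only in genes above the floor and with no difference in library factor. That run cannot speak for low members or for the choice of scale, and nothing is concluded from it here. An incomplete entry was left out. The last complete entry is Zc3h14, so genes with later symbols may be absent, and shares and percentiles are over the entries present. The members and lists were chosen with earlier results of these data known. Named members are the 5 largest called changes per comparison, up to 5 whose direction turned before the factor, and Rps27, Rps27a, Rps27l, Rpsa and Fau. Some members are not reported here by name. Others, such as Rps2 and Rps28 at the 2-cell stage, were named after their values were seen. Alternatives were FPKM before the factor, size factors, quantile normalization, pseudocounts, a filter, fewer groups, a replicate block and each library left out. Before the factor, lower values were raised to the highest floor of the stages compared, which was 4.71 FPKM at the 1-cell and 8.61 FPKM at the 2-cell stage. With size factors, values were likewise raised to the highest floor of all libraries. Differences under these floors are not seen there, so changes of low genes are reduced. Start windows and 3′ untranslated regions came from RefSeq and GENCODE (GRCm38), not the authors' build.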

Additional observations from a re-analysis of the deposited data

Results flagged for a closer look

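The members below were picked out because their change between stages differed between KO and WT by a test of the difference itself (the interaction term, KO minus WT, limma adjusted p under 0.05). The terms of both steps share the 1-cell libraries and are not independent. For the step from GV oocyte to 1-cell embryo the log2 terms were 3.69 for Rpsa, 3.19 for Rps3, 2.91 for Rps2, 2.70 for Rps4y2 and 2.39 for Rps25, and the first 4 of these genes were called before the library factor as well. Rpsa and Rps3 were at the floor in both WT libraries of 1-cell embryos, while Rps2 was not at the floor in any library. Rps14, Rps12 and Rps15a had terms of 0.94, 0.92 and 0.81, which turned negative before the factor.

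For the step from the 1-cell to the 2-cell embryo the log2 terms were -4.65 for Rps3, -4.43 for Rps25, -4.22 for Rps4y2 and -3.80 for Rps13. They were -3.28 for Rpsa, -2.42 for Rps27a, -2.36 for Fau and -0.71 for Rps15a. The term of Rps15a turned positive before the factor, and those of the other 7 genes kept their sign. Tests of a single library far from its group were not run, since each group holds 2 libraries.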

How the results depend on the processing

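The 61 log2 values listed below that turned their sign all did so under another scaling of the libraries. Members called higher in KO 1-cell embryos numbered 9 for FPKM before the factor, 5 for median-ratio size factors, 8 with quantile normalization (which called 1 lower) and 9 with only the groups compared. In 2-cell embryos 2 were called higher with size factors and 2 with quantile normalization, and 2 lower with only the groups compared. Members called higher in WT 1-cell embryos against oocytes numbered 1, 1 and 2 before the factor, with size factors and with quantile normalization, and in KO 2, 2 and 3. In KO 2-cell against 1-cell embryos those 3 settings called 16, 12 and 21 higher and 3, 1 and 2 lower, and only the groups compared called 0 and 12. The first interaction had 4 members called in each of the 3, and the second had 18 with size factors.

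Log2 values that turned their sign, with a call on either side, are given before the factor, with size factors and with quantile normalization. In KO against WT at the 1-cell stage they were Rps14 -0.011, -0.065 and -0.23, Fau -0.18, -0.23 and -0.39, Rps16 -0.30, -0.35 and -0.51, Rps27l -0.0027 (size factors) and -0.19 (quantile). In WT 1-cell embryos against WT oocytes they were Rps15a 0.62, 0.59 and 1.04, Rps27l 1.11, 1.09 and 1.29. In WT 2-cell against WT 1-cell embryos they were Rps27l 0.75 (before the factor) and 0.86 (quantile), Rps2 0.88, 0.88 and 1.01. In KO 1-cell embryos against KO oocytes they were Rps15a 0.47, 0.37 and 0.73, Rps27l 0.98, 0.90 and 0.99, Rps2 0.87, 0.79 and 1.13. In KO 2-cell against KO 1-cell embryos they were Rps16 0.35, 0.40 and 0.48, Rps9 0.31, 0.36 and 0.53, Rps6 0.33, 0.37 and 0.57, Rps13 0.62, 0.67 and 0.77, Rps27l 1.22, 1.28 and 1.43, Rpsa 1.21, 1.24 and 1.34. In the interaction to the 1-cell stage they were Rps14 -0.061, -0.13 and -0.19, Rps12 -0.084, -0.15 and -0.23, Rps15a -0.16, -0.21 and -0.31. In the interaction from the 1-cell to the 2-cell stage they were Rps15a 0.25, 0.29 and 0.67. The cause was not tested.

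With 1 library left out, members called lower in KO numbered 0 to 1 in oocytes and 15 to 26 in 2-cell embryos, and those called higher 16 to 20 in 1-cell and 1 to 1 in 2-cell embryos. Called lower were 34 to 34 in WT and 30 to 31 in KO 1-cell embryos against oocytes. In 2-cell against 1-cell embryos, WT had 18 to 24 higher and 1 to 1 lower, and KO 0 to 4 higher and 18 to 25 lower. The interactions had 10 to 17 higher and 26 to 30 lower. Where a group is left with 1 library, that library is assumed to vary like the others. Pseudocounts of 0.1 and 5 and a mean of at least 5 FPKM moved none of these counts by over 1.5 times.

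The share of all FPKM moved by more than the spread between libraries when Rps27l was left out, to 2.22% in WT oocytes, 0.562% in KO and 0.462% in WT 1-cell embryos, and 1.05% in KO and 2.12% in WT 2-cell embryos. With floor values counted as 0 it was 0.796% in WT 1-cell and 2.91% in WT 2-cell embryos, and with a mean of at least 5 FPKM 0.817% and 3.06%.

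The labels do not say whether replicate numbers pair the libraries. Same-numbered libraries of KO and WT correlated in their deviations from the group means at 0.166 in oocytes, -0.0816 in 1-cell and -0.248 in 2-cell embryos. Over all pairs of groups the values ran from -0.40 to 0.166. With 2 libraries in a group their deviations mirror each other, so these values cannot decide on pairing. With the replicate number as a block, KO against WT gave 21 higher and 0 lower in 1-cell and 1 higher and 24 lower in 2-cell embryos, and the interactions 15 higher and 29 lower. The block ended the call of Rps15a in the second interaction (-0.71, adjusted p = 0.0702).

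Depth is not known from FPKM, and a value of 1 hides anything lower, so differences under the floor were not detectable.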
